A study of Mus musculus with 50 samples.

Results

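Of the 50 libraries in the series, 6 were set against each other here: 3 of granulocyte-monocyte progenitors (GMP) sorted from Flt3 mutant mice at 4 weeks, and 3 of GMP sorted from wild-type (WT) mice at 4 weeks. They were chosen by their titles, and they are the only pair of Flt3 and WT GMP groups taken at the same time, because WT libraries exist at 4 weeks alone. The Flt3 group carries the genotype label Flt3 with no second mutation named, and the WT group carries the label WT. A tamoxifen or vehicle treatment is described in the labels for lineage-negative cells only, which are not used here. The labels state that the mutations of the series were switched on with the recombinases Cre, Dre or Flp, without saying which one was used for these animals. They give neither the form of the Flt3 allele, the promoter that drives the recombinase, the event from which weeks were counted, the age, nor the sex. The labels name a kit for paired-end and another for single-end reads, and not which of them served these samples. The 3 Flt3 sample codes share a prefix that differs from the prefix of the 3 WT codes, so genotype and whatever series of mice that prefix stands for cannot be told apart.

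Flt3 encodes a receptor tyrosine kinase of early blood progenitors, which in normal marrow binds FLT3 ligand and drives survival, proliferation and the dendritic and lymphoid lineages. Mutations that leave the receptor active without ligand are frequent in human acute myeloid leukaemia. They are known to act through the kinases of the RAS and MAPK pathway. Some of them, unlike the ligand-bound normal receptor, also act strongly through the transcription factor STAT5. GMP are the marrow progenitors from which neutrophils and monocytes arise. They are recognised by high surface CD16/32 and Kit without Sca-1 or lineage markers, and by the messages of the primary granule proteins.

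The 3 Flt3 libraries held 572370, 830550 and 951622 counts, and the 3 WT libraries 1014847, 2009072 and 1491029. Between 11050 and 11887 genes were detected in the Flt3 libraries and between 11610 and 12653 in the WT libraries, so the Flt3 libraries were the shallower ones. Levels below are CPM, a gene's counts scaled to 1000000 counts of its library, in the order of replicates 1, 2 and 3, and they compare a gene between libraries, not one gene with another. The sorted cells carried GMP messages in both groups: all 9 GMP markers were detected, and Mpo, the myeloperoxidase gene, took the largest share of counts in each of the 6 libraries, 2.26% to 2.71% in Flt3 GMP and 3.33% to 4.34% in WT GMP. Among markers of other cells, Cd79a and Pax5 of B cells and Cd3e of T cells had no counts in either group. The 4 B cell markers still summed to 88.3 to 105 CPM in Flt3 GMP and 74.9 to 88.5 CPM in WT GMP, there from Cd79b alone. The 4 T and NK cell markers summed to 0 to 6.02 CPM in Flt3 GMP and 0 to 1.34 CPM in WT GMP. The summed erythroid markers stood at 1.75 to 9.46 CPM in Flt3 GMP and 125 to 183 CPM in WT GMP, with Car1 at 0 in Flt3 GMP, and the summed macrophage markers at 7.36 to 22.7 CPM in Flt3 GMP and 56.2 to 106 CPM in WT GMP. Y-linked genes stayed at or under 1.75 CPM in all 6 libraries and Xist lay at 8.41 to 12.2 CPM in Flt3 GMP and 10.7 to 18.4 CPM in WT GMP. One further library, Flt3 8-week GMP replicate 2, had counts for 988 genes and is called the near-empty library. It takes part in the fits and is left out of the values and figures. In bulk libraries such as these, fewer cells of a kind and less RNA per cell cannot be told apart.

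How far the progenitors of Flt3 mutant mice differ from WT progenitors at the same time was asked across 9122 genes. Of these, 1364 changed (15.0%; edgeR's quasi-likelihood test, Benjamini-Hochberg adjusted p under 0.05): 655 rose (7.18%) and 709 fell (7.77%). Of these, 622 that rose and 707 that fell had counts in both groups, and their fitted fold changes can be sized. Their median log2 fold change of Flt3 over WT was 1.26 among those that rose and -0.84 among those that fell, while over all tested genes it was 0.04. A change of at least 2-fold was found for 412 of them that rose and 257 that fell, and a change of at least 8-fold for 67 that rose and 22 that fell. The number of calls was 770 without Flt3 replicate 3, 889 without WT replicate 1 and 366 by DESeq2. By DESeq2 without the near-empty library it was 1384. The balance of rises and falls depended on the scaling of the libraries: with median-ratio size factors 891 rose and 478 fell (65.1% higher, against 48% with TMM scaling), as the median of all genes moved to 0.16, and without the near-empty library the same factors gave 617 that rose and 810 that fell. Fold changes below are read against the median of all genes. Counts of list members are read against the 7.18% of all tested genes that rose and the 7.77% that fell. Of the 1364 genes that changed, 1274 had CPM values that did not overlap between the 3 Flt3 and the 3 WT libraries. This held for 36.1% of all tested genes (26.0% higher and 10.1% lower in Flt3 GMP). CPM lack the TMM scaling of the fit, whose factors were 0.9637 to 1.017 for Flt3 and 0.8265 to 0.8758 for WT libraries. CPM therefore set Flt3 higher against WT than the fit does. The part of the scaling in this imbalance was not tested.

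**Figure D1:**
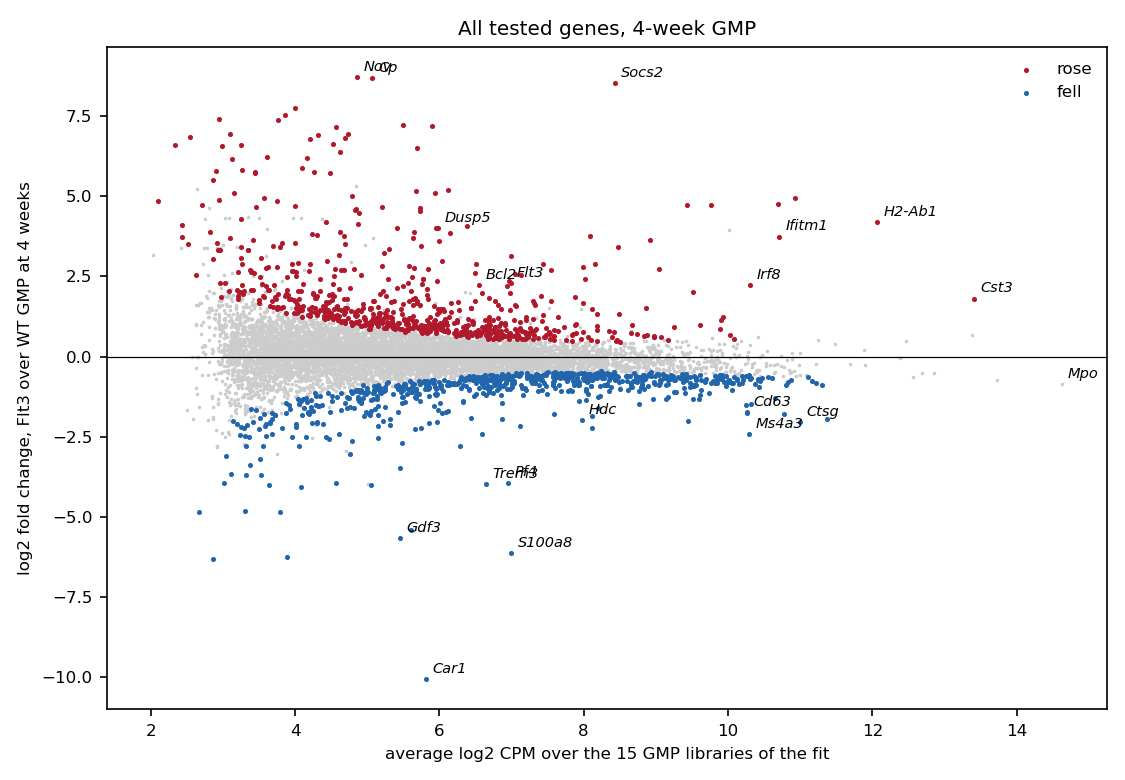
Each point is one of the 9122 tested genes, with its average log2 CPM over the 15 GMP libraries of the fit on the x axis and its log2 fold change of Flt3 over WT GMP at 4 weeks on the y axis. Red points rose (655) and blue points fell (709) at an adjusted p under 0.05, grey points did neither, and some genes are labelled; the fitted values of Nov, Cp and Car1, which had no counts in 1 group, depend on the prior count and are no measure of size.

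The receptor gene itself was higher in the mutant progenitors. Flt3, on chromosome 5 (chr5:147330741-147400489, GRCm38), had 122, 129 and 157.6 CPM in Flt3 GMP, against 16.8, 26.4 and 28.2 CPM in WT GMP. The lowest Flt3 library was well above the highest WT library, and the log2 fold change was 2.28 ± 0.22 (SE), with an adjusted p = 4.64e-11. Counts per gene do not separate a mutant from a normal allele, so this level says nothing of which allele was read. Among 16 tested cytokine receptor genes, 4 rose and 3 fell, with a median of 0.08. Il6st, the shared signalling chain of the interleukin-6 family receptors, had 64.6, 68.6 and 45.2 CPM in Flt3 GMP, against 8.87, 10.95 and 13.4 CPM in WT GMP (2.19 ± 0.38, adjusted p = 7.52e-05). Its partner Il6ra, which binds interleukin-6, rose by 1.04 ± 0.30, and Il10ra, the interleukin-10 receptor chain, by 2.13 ± 0.46 (adjusted p = 0.00152). Il6ra lost its call without Flt3 replicate 1, Flt3 replicate 3 or WT replicate 1 (highest adjusted p = 0.092). Csf1r, the receptor for the monocyte growth factor M-CSF, had 159, 207 and 198 CPM in Flt3 GMP, against 43.4, 60.7 and 55.7 CPM in WT GMP (1.604 ± 0.21, adjusted p = 2.53e-07). The receptor for the neutrophil growth factor G-CSF went the other way: Csf3r had 57.7, 48.2 and 30.5 CPM in Flt3 GMP, against 72.9, 94.1 and 103 CPM in WT GMP (-1.22 ± 0.28, adjusted p = 0.0019). Ifngr1, the ligand-binding chain of the interferon-gamma receptor, fell to 260.3, 254 and 243 CPM in Flt3 GMP, against 489, 590.3 and 744 CPM in WT GMP (-1.47 ± 0.18, adjusted p = 2e-08). The TNF receptor gene Tnfrsf1b fell by 1.32 on the log2 scale, a call lost without Flt3 replicate 3 (adjusted p = 0.0578). The receptor genes for GM-CSF did not pass the test, with Csf2rb at 0.63 ± 0.24 (adjusted p = 0.0647); without Flt3 replicate 1 (adjusted p = 0.0461) and with median-ratio factors (adjusted p = 0.029) Csf2rb did pass.

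STAT5 output genes included the largest rise among genes with counts in both groups. STAT5 induces the SOCS family, whose proteins bind activated receptors and damp their signal, and Socs2 was the member that changed most. Socs2, on chromosome 10, had 477, 531 and 519 CPM in Flt3 GMP, against 1.97, 0.498 and 1.34 CPM in WT GMP. The 3 Flt3 libraries were close to one another, and the WT libraries were at or under 1.97 CPM, so the groups lay far apart (8.55 ± 0.33, adjusted p = 1.9e-26). Cish, the CIS gene of the same family, had 12.2, 25.3 and 42.0 CPM in Flt3 GMP, against 1.97, 0.498 and 0 CPM in WT GMP, without overlap (5.005 ± 0.62, adjusted p = 5.24e-08). Socs1, whose product inhibits JAK kinases, had 26.2, 30.1 and 29.4 CPM in Flt3 GMP, against 7.88, 5.48 and 2.68 CPM in WT GMP (2.26 ± 0.41, adjusted p = 7.14e-05). Pim1, a survival kinase gene, had 17.5, 21.7 and 37.8 CPM in Flt3 GMP, against 6.90, 9.46 and 1.34 CPM in WT GMP (1.90 ± 0.47, adjusted p = 0.00402), and its call was lost without Flt3 replicate 3 (adjusted p = 0.0697). These were the 4 of 13 tested genes of the STAT5 list that rose, and the median of the list was 0.60 on the log2 scale. Other known targets did not pass the test: Myc stood at 973 to 1259 CPM in Flt3 GMP against 489.7 to 786 CPM in WT GMP (0.58 ± 0.21, adjusted p = 0.0508), Ccnd2, the cyclin D2 gene, at 0.41 ± 0.21 (adjusted p = 0.0347 in a fit of the 6 libraries alone), Pim2 at 0.60 ± 0.48 and Bcl2l1, which encodes BCL-XL, at 0.75 ± 0.34 (adjusted p = 0.139). Without the near-empty library Myc did pass (adjusted p = 0.00587), and without Flt3 replicate 1 Bcl2l1 did (adjusted p = 0.032).

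STAT5 dimers are known to bind the palindrome TTCNNNGAA, and Cish is shown because its start region carries that pattern and its message rose with Socs2. The stretch below covers the last few bases before the annotated start of Cish and the first bases of its transcript (chr9:107296654-107296683, plus strand, GRCm38.p6, sequence from RefSeq), with matches to TTCNNNGAA in capitals.
Cish: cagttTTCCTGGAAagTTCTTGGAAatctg
There are 2 matches, at bases 1 and 12 of the annotated transcript. The pattern reads the same on both strands, and 8.3% of 32851 RefSeq promoter entries of 300 bases hold at least 1 match. A match describes the letters of the reference and not binding in these cells.

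Genes that answer the MAPK cascade moved in both directions. The dual-specificity phosphatases switch off MAP kinases, and Dusp5, which acts on nuclear ERK, had 75.1, 118 and 77.8 CPM in Flt3 GMP, against 5.91, 5.97 and 2.68 CPM in WT GMP, with no overlap between the groups (4.00 ± 0.33, adjusted p = 2.72e-13). Dusp6, the phosphatase of cytoplasmic ERK, had 5.24, 0 and 6.31 CPM in Flt3 GMP, against 23.6, 36.3 and 22.8 CPM in WT GMP (-3.05 ± 0.55, adjusted p = 0.000112). Dusp1, an immediate early phosphatase gene, had 55.9, 81.9 and 104 CPM in Flt3 GMP, against 20.7, 26.9 and 20.8 CPM in WT GMP (1.62 ± 0.40, adjusted p = 0.0123), a call lost without Flt3 replicate 3, WT replicate 1 or WT replicate 3 (highest adjusted p = 0.075). The remaining 4 of 7 tested feedback genes did not pass the test, and the median of the list was 0.28. Of 10 tested early response genes, 4 rose. The AP-1 gene Fos had 99.6, 118 and 186 CPM in Flt3 GMP, against 32.5, 42.8 and 47.6 CPM in WT GMP (1.51 ± 0.24, adjusted p = 1.61e-05). Its partner Jun had 105 to 161 CPM in Flt3 GMP against 53.2 to 64.4 CPM in WT GMP (0.84 ± 0.21, adjusted p = 0.00382), a call lost without Flt3 replicate 3 (adjusted p = 0.0973). Jund rose by 1.24 ± 0.32 and Zfp36, which encodes an mRNA-destabilising protein, by 1.18 ± 0.25. Egr1, the classical ERK-induced zinc finger gene, stood at 5.24 to 22.1 CPM in Flt3 GMP against 5.91 to 8.46 CPM in WT GMP, so the groups overlapped (not called). Among 20 tested adaptors, phosphatases and JAK-STAT proteins, 4 rose. Among these 4, the transcription factor gene Stat5b and the phosphatase genes Ptpn6 (SHP-1) and Ptpn11 (SHP-2) had adjusted p between 0.038 and 0.0468. Without Flt3 replicate 1, WT replicate 1 or WT replicate 3, the list had 1 gene that rose, and without Flt3 replicate 3 or WT replicate 2 it had 2.

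The antigen presentation genes of the MHC class II pathway rose together. Class II molecules display peptides on dendritic cells, macrophages and B cells, their transcription depends on the coactivator CIITA, and the invariant chain Cd74 guides them to the lysosome. Of 10 tested class II genes 8 rose, against 7.18% of all tested genes, and the median of the 10 was 3.20 on the log2 scale with Ciita set at its lower bound. H2-Ab1, a beta chain gene, had 1228, 1534 and 2220.4 CPM in Flt3 GMP, against 92.6, 69.2 and 73.8 CPM in WT GMP (4.21 ± 0.41, adjusted p = 6.75e-08). H2-Aa, its alpha chain partner, had 489, 662 and 779.7 CPM in Flt3 GMP, against 14.8, 11.4 and 28.2 CPM in WT GMP (4.96 ± 0.64, adjusted p = 0.000292). H2-Eb1 had 327, 384 and 431 CPM in Flt3 GMP, against 6.90, 9.46 and 19.4 CPM in WT GMP (4.76 ± 0.69, adjusted p = 0.000796). Every Flt3 library was above every WT library for these 3 chain genes. Cd74 had 201, 272 and 276 CPM in Flt3 GMP, against 5.91, 8.96 and 8.72 CPM in WT GMP (4.74 ± 0.93, adjusted p = 0.00677). Ciita had 5.24, 7.22 and 3.15 CPM in Flt3 GMP and no counts in WT GMP, which makes it at least 7.67-fold higher when the WT group is set at 3 counts (adjusted p = 0.00226). The peptide-loading genes H2-DMb2 (3.46 ± 0.51, adjusted p = 2.18e-05) and H2-DMb1 (1.34 ± 0.27, adjusted p = 0.00166) also rose, as did H2-Ob (0.99 ± 0.33, adjusted p = 0.0332), while H2-DMa (0.53 ± 0.20, adjusted p = 0.073) and H2-Oa (0.31 ± 0.32, adjusted p = 0.567) did not pass the test. H2-Ob lost its call without any single library other than Flt3 replicate 1 (highest adjusted p = 0.176), and H2-DMa passed without the near-empty library (adjusted p = 0.0347).

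The class II promoters are known for a shared set of boxes, among them the inverted CCAAT motif of the Y box. The 150 bases before the annotated start of H2-Aa (chr17:34287824-34287973, minus strand) and of H2-Eb1 (chr17:34305717-34305866, plus strand) are shown as the promoters of an alpha and a beta chain gene that rose together, from RefSeq on GRCm38.p6, with matches to CTGATTGG in capitals.
H2-Aa: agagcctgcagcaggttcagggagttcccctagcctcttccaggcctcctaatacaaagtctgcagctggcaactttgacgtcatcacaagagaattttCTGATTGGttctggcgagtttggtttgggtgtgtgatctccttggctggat
H2-Eb1: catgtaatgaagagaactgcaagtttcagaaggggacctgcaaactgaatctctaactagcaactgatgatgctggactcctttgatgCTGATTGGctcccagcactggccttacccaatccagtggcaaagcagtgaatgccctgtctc
Each holds 1 match on its own strand, whose first base lies 51 bases before the start in H2-Aa and 62 bases before it in H2-Eb1. Searched on both strands, CTGATTGG is present in 4.1% of the same 32851 promoter entries. The match is a feature of the reference sequence, and no binding was measured.

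Dendritic cell genes rose in part. Of 18 tested genes 9 rose and 1 fell, with a median of 2.16 with genes absent from WT set at their lower bounds. In a fit of the 6 libraries alone 4 rose. That fit tested 7789 genes against 9122, and members it did not test are not in this count. Each dendritic gene named here that was tested there kept its call. Zbtb46, a transcription factor gene of classical dendritic cells, had 1.75, 4.82 and 23.1 CPM in Flt3 GMP and no counts in WT GMP, at least 17.3-fold higher (adjusted p = 0.0124). Replicate 3 held the highest of these values by far. Cd209a, a lectin gene of monocyte-derived and type 2 dendritic cells, had 13.98, 3.61 and 9.46 CPM in Flt3 GMP and no counts in WT GMP, at least 12.8-fold higher (adjusted p = 3.29e-05). Batf3, needed for type 1 dendritic cells, had 24.5, 14.4 and 52.5 CPM in Flt3 GMP, against 0, 1.49 and 1.34 CPM in WT GMP (4.54 ± 0.60, adjusted p = 2.37e-06), and the type 1 markers Xcr1 (5.21 ± 1.35, adjusted p = 0.0177) and Clec9a (2.90 ± 0.98, adjusted p = 0.0372) rose from similarly low levels. Xcr1 lost its call without any single library other than Flt3 replicate 1 (highest adjusted p = 0.089), and Clec9a without Flt3 replicate 1, Flt3 replicate 2, WT replicate 1 or WT replicate 3 (highest adjusted p = 0.252) and without the near-empty library (adjusted p = 0.0543). At higher levels, Cst3, the cystatin C gene, had 5131, 6289.8 and 6839 CPM in Flt3 GMP, against 1593, 1418 and 1495 CPM in WT GMP (1.81 ± 0.32, adjusted p = 6.33e-05). Naaa, a lysosomal amidase gene, had 115, 146 and 153 CPM in Flt3 GMP, against 6.90, 6.47 and 15.4 CPM in WT GMP (3.65 ± 0.65, adjusted p = 0.00368). Mgl2, a lectin gene of type 2 dendritic cells and macrophages, fell to 0, 6.02 and 3.15 CPM in Flt3 GMP, against 28.6, 27.9 and 87.9 CPM in WT GMP (-4.01 ± 0.61, adjusted p = 5.97e-05). The 5 defining dendritic markers summed to 27.95 to 48.3 CPM in Flt3 GMP and 0.985 to 1.34 CPM in WT GMP. The part of such cells in the rise of the class II genes was not tested.

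**Figure D2:**
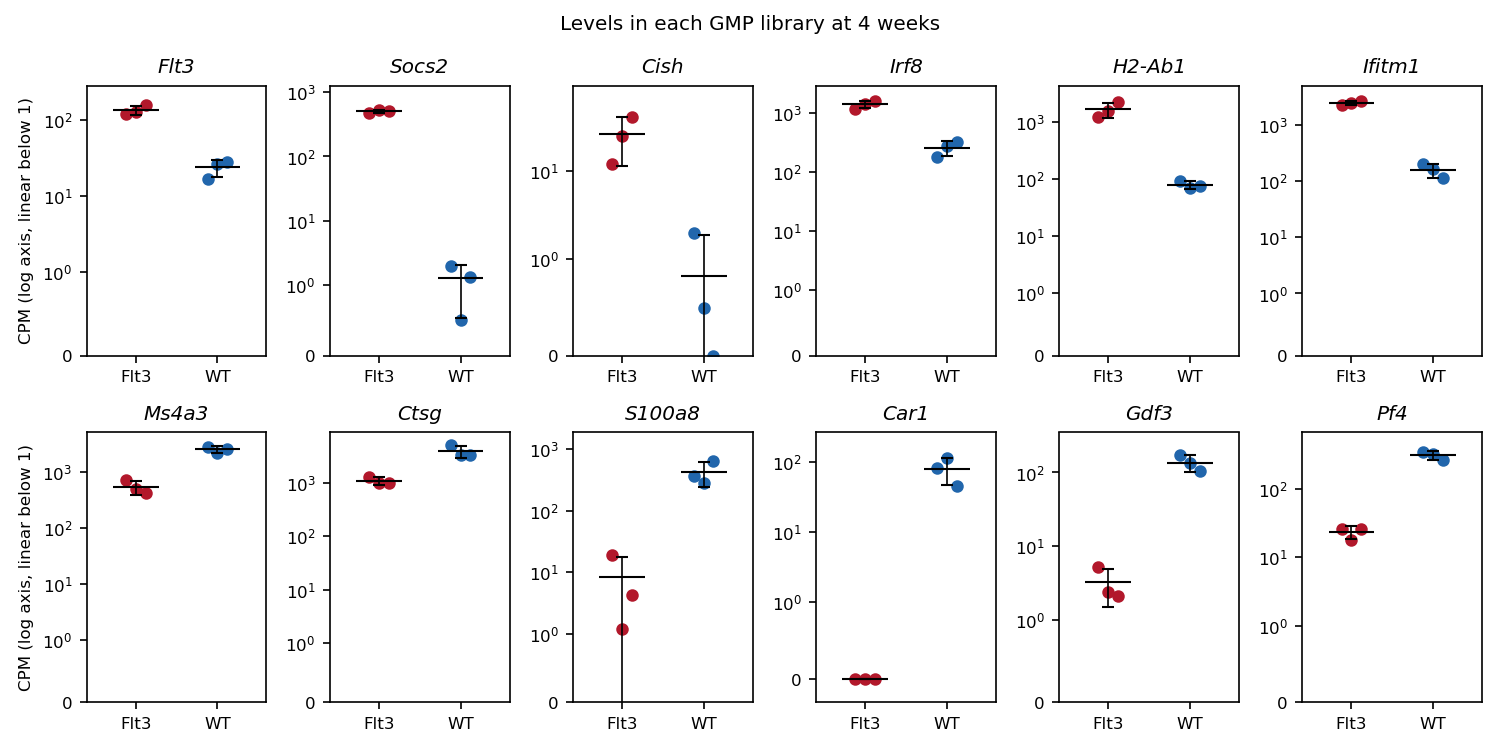
CPM of 12 genes in the 3 Flt3 GMP (red, left) and the 3 WT GMP libraries (blue, right) at 4 weeks, on a log axis that is linear below 1 CPM, with one point per library, a bar at the group mean and whiskers of 1 SD. The Flt3 and WT points do not overlap in any of the 12 panels: Flt3, Socs2, Cish, Irf8, H2-Ab1 and Ifitm1 are higher in Flt3 GMP, and Ms4a3, Ctsg, S100a8, Car1, Gdf3 and Pf4 are lower.

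The transcription factors of myeloid fate shifted within the list. Of 18 tested factors 7 rose and 2 fell, and the median was 0.62. Irf8, which directs monocyte and dendritic cell fates, had 1162, 1415 and 1563 CPM in Flt3 GMP, against 176, 269.8 and 321 CPM in WT GMP (2.22 ± 0.27, adjusted p = 6.83e-07), so that the lowest Flt3 library lay above the highest WT library. Id2, an inhibitor of E proteins needed for dendritic cells, had 105, 144 and 249 CPM in Flt3 GMP, against 12.8, 10.95 and 17.4 CPM in WT GMP (3.42 ± 0.58, adjusted p = 0.00277). Klf4, a monocyte factor gene, had 3.49, 4.82 and 5.25 CPM in Flt3 GMP and no counts in WT GMP, at least 7.03-fold higher (adjusted p = 0.00521). Zeb2 (1.01 ± 0.27), Tcf4 (1.02 ± 0.26), the plasmacytoid dendritic cell factor, and Runx1 (0.96 ± 0.25) rose by smaller amounts. Zeb2 lost its call without Flt3 replicate 3 (adjusted p = 0.0758), and Runx1 without Flt3 replicate 2 or WT replicate 1 (highest adjusted p = 0.108). Gfi1, the repressor that favours neutrophils, had 33.2, 20.5 and 21.02 CPM in Flt3 GMP, against 98.5, 95.6 and 105 CPM in WT GMP (-2.25 ± 0.27, adjusted p = 1.87e-08). Cebpd, a C/EBP family gene, fell by 1.66 on the log2 scale (adjusted p = 7.82e-06). Cebpa, the master factor of GMP, stood at 22.9 to 27.95 CPM in Flt3 GMP against 12.8 to 30.4 CPM in WT GMP (not called). Sfpi1, the gene of PU.1, stood at 255 to 283 CPM in Flt3 GMP against 217 to 272 CPM in WT GMP (not called). Myb, the progenitor proliferation factor, stood at 286 to 329.9 CPM in Flt3 GMP against 247 to 303 CPM in WT GMP (not called). The groups overlapped for all 3 of these factors.

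Monocyte genes were split. Of 14 tested genes 5 rose and 1 fell, with a median of 0.27, and without Flt3 replicate 3 the number that rose was 3. Lgals3, the galectin-3 gene of monocytes and macrophages, had 159, 179 and 294 CPM in Flt3 GMP, against 27.6, 17.9 and 30.9 CPM in WT GMP (2.89 ± 0.41, adjusted p = 0.00039). Cd68, a lysosomal membrane protein of phagocytes, rose by 0.84 ± 0.20, Ms4a4c by 1.26 ± 0.31 and Cx3cr1, the fractalkine receptor of patrolling monocytes, by 1.79 ± 0.59. The call of Ms4a4c was lost without Flt3 replicate 3 (adjusted p = 0.0549), and that of Cx3cr1 without any single library other than Flt3 replicate 1 (highest adjusted p = 0.157). Ly6c2, the gene of the inflammatory monocyte antigen Ly6C, had 886, 506 and 402 CPM in Flt3 GMP, against 1179, 1004 and 1714 CPM in WT GMP (-1.33 ± 0.23, adjusted p = 8.9e-05), although its call was lost in a fit of the 6 libraries alone (adjusted p = 0.0752). Ccr2, the receptor that brings monocytes out of the marrow, stood at 45.4 to 83.0 CPM in Flt3 GMP against 47.6 to 57.2 CPM in WT GMP (not called). Among 18 tested lysosomal genes, 4 rose and 2 fell, and the median was 0.09. Plbd1, a phospholipase B-like gene, had 196, 272 and 353 CPM in Flt3 GMP, against 5.91, 5.97 and 14.8 CPM in WT GMP (4.74 ± 0.61, adjusted p = 0.000306). Psap, the prosaposin gene, had 487, 629.7 and 667 CPM in Flt3 GMP, against 132, 112 and 142 CPM in WT GMP (2.01 ± 0.21, adjusted p = 8.92e-10). Ctss, the cathepsin that trims the invariant chain, had 159, 202 and 228 CPM in Flt3 GMP, against 45.3, 44.8 and 71.8 CPM in WT GMP (1.67 ± 0.22, adjusted p = 3.95e-07). The tetraspanin gene Cd63 of granule and lysosome membranes fell to 568, 567 and 523 CPM in Flt3 GMP, against 1478, 1499 and 1834 CPM in WT GMP (-1.74 ± 0.21, adjusted p = 3.04e-08).

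Genes of the primary granules and other GMP genes, taken as a single list, were mostly lower in the mutant progenitors. Of 14 tested genes 10 fell, against 7.77% of all tested genes, and 1 rose, and the median was -1.37. Ms4a3, a surface protein gene of granulocyte-monocyte progenitors, had 718, 501 and 422 CPM in Flt3 GMP, against 2838, 2195 and 2575 CPM in WT GMP (-2.42 ± 0.24, adjusted p = 7.29e-11). Ctsg, the cathepsin G gene, had 1272, 984 and 962 CPM in Flt3 GMP, against 4953, 3338 and 3279 CPM in WT GMP (-2.06 ± 0.24, adjusted p = 9.6e-09). Elane, the neutrophil elastase gene, had 1090.2, 843 and 525 CPM in Flt3 GMP, against 1694, 2293 and 3216 CPM in WT GMP (-1.75 ± 0.28, adjusted p = 0.0001). Prtn3, the proteinase 3 gene, had 753 to 1115 CPM in Flt3 GMP against 1866 to 2584 CPM in WT GMP (-1.48 ± 0.28, adjusted p = 0.000674). For each of these genes the Flt3 and WT libraries were apart. Prss57, another granule protease gene, fell by 1.78 and Srgn, the proteoglycan that packs granule proteins, by 1.80 on the log2 scale. Trem3, a receptor gene of the TREM family, had 34.9, 12.04 and 16.8 CPM in Flt3 GMP, against 281, 253 and 295 CPM in WT GMP (-3.99 ± 0.31, adjusted p = 8.25e-11). Mpo had 27058, 22552 and 23266 CPM in Flt3 GMP, against 33262, 38939.9 and 43365 CPM in WT GMP, lower in each Flt3 library than in any WT library, but did not pass the test (-0.87 ± 0.34, adjusted p = 0.0724). It did pass, at a like fold, without the near-empty library (adjusted p = 0.00756) and in a fit of the 6 libraries alone (adjusted p = 4.52e-05). Lyz2, lysozyme, stood at 466 to 605 CPM in Flt3 GMP against 445 to 585 CPM in WT GMP (-0.12 ± 0.19, adjusted p = 0.718). Ctsc, whose cathepsin activates the granule proteases, rose, with 257, 260.1 and 298 CPM in Flt3 GMP, against 117, 119 and 117 CPM in WT GMP (1.00 ± 0.17, adjusted p = 3.24e-05).

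Of 7 tested late neutrophil genes 3 fell and 1 rose, with a median of -2.94. S100a8 and S100a9 encode the chains of calprotectin. S100a8 had 19.2, 1.20 and 4.20 CPM in Flt3 GMP, against 358, 284 and 634 CPM in WT GMP (-6.13 ± 0.52, adjusted p = 2.05e-06). S100a9 had 0, 0 and 1.05 CPM in Flt3 GMP, against 40.4, 14.4 and 48.3 CPM in WT GMP (-6.27 ± 0.81, adjusted p = 9.99e-08). The clone-named gene 1100001G20Rik, the row that holds Wfdc21, had 10.5, 3.61 and 0 CPM in Flt3 GMP, against 155, 102 and 188 CPM in WT GMP (-5.42 ± 0.58, adjusted p = 2.33e-06). Camp, the cathelicidin gene of secondary granules, had no counts in Flt3 GMP and 4.93, 10.5 and 16.8 CPM in WT GMP, at least 8.87-fold lower. It was below the expression filter and carries no test. The gene that rose was Mmp8 (1.90 ± 0.66, adjusted p = 0.043), a call lost when any single library other than WT replicate 2 was left out (highest adjusted p = 0.14) and without the near-empty library (adjusted p = 0.061). Cebpe, the factor of terminal granulopoiesis, stood at 13.7 to 45.4 CPM in Flt3 GMP against 18.7 to 61.7 CPM in WT GMP, and the groups overlapped (-1.07 ± 0.48, adjusted p = 0.154). Without Flt3 replicate 1 it passed (adjusted p = 0.0265). Ltf, Camp, Ngp, Retnlg and Ly6g, the markers of mature neutrophils, summed to 0 to 2.10 CPM in Flt3 GMP and 11.8 to 28.2 CPM in WT GMP, and their part in the fall of the granule genes was not tested.

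Most tested erythroid genes fell, and a few megakaryocyte genes did. Of 10 tested erythroid genes 6 fell (Car1, Gata1, Klf1, Car2, Blvrb and the alpha-globin gene Hba-a1), with a median of -2.12 with Car1 at its bound. Car1, carbonic anhydrase 1 of red cell precursors, had no counts in Flt3 GMP and 83.8, 115 and 45.6 CPM in WT GMP, at least 66.8-fold lower (adjusted p = 4.42e-12). Gata1, the erythroid master factor, had 1.75, 6.02 and 7.36 CPM in Flt3 GMP, against 32.5, 30.9 and 25.5 CPM in WT GMP (-2.63 ± 0.43, adjusted p = 1.38e-05). Klf1, its partner at the globin genes, had 0, 2.41 and 0 CPM in Flt3 GMP, against 10.8, 18.4 and 40.9 CPM in WT GMP (-4.87 ± 0.81, adjusted p = 2.68e-05). Car2 fell by 2.07 and Blvrb, a biliverdin reductase gene, by 2.18 on the log2 scale. The call of Hba-a1 was lost without Flt3 replicate 1, Flt3 replicate 2 or WT replicate 2 (highest adjusted p = 0.0839). The beta-globin gene Hbb-b1, outside the list, had 3.49, 1.20 and 1.05 CPM in Flt3 GMP, against 15.8, 32.9 and 29.5 CPM in WT GMP (-4.08 ± 1.17, adjusted p = 0.0335). It has close copies in the genome, and its call was lost when any 1 of the 6 libraries was left out (highest adjusted p = 0.159). The transcription factor gene Nfe2 stood at 370.4 to 537 CPM in Flt3 GMP against 405 to 456 CPM in WT GMP (-0.14 ± 0.19, adjusted p = 0.682). Of 8 tested megakaryocyte genes 2 fell and the median was -1.02. Pf4, the platelet factor 4 gene, had 26.2, 18.1 and 26.3 CPM in Flt3 GMP, against 346, 325 and 261 CPM in WT GMP (-3.94 ± 0.53, adjusted p = 0.000473). Itga2b, the integrin chain CD41, had 8.74, 18.1 and 14.7 CPM in Flt3 GMP, against 42.4, 55.2 and 27.5 CPM in WT GMP (-1.76 ± 0.32, adjusted p = 7.8e-05). Gp5, a platelet glycoprotein gene below the filter, had no counts in Flt3 GMP and 9.85, 11.9 and 8.72 CPM in WT GMP, at least 8.17-fold lower.

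Basophil, mast cell and eosinophil genes fell in part. Of 10 tested basophil and mast cell genes 4 fell and 1 rose, with a median of -0.92. Hdc, the histamine-forming enzyme, had 138, 92.7 and 94.6 CPM in Flt3 GMP, against 326, 361 and 409.8 CPM in WT GMP (-1.98 ± 0.20, adjusted p = 1.39e-10). Cpa3, the mast cell carboxypeptidase, had 126, 137 and 233 CPM in Flt3 GMP, against 429.6, 396 and 255 CPM in WT GMP (-1.31 ± 0.23, adjusted p = 3.57e-05). Fcer1a, the alpha chain of the IgE receptor, fell by 1.61 (adjusted p = 0.000418) and Ms4a2, its beta chain, by 1.19 on the log2 scale, the second a call lost without Flt3 replicate 2, Flt3 replicate 3 or WT replicate 1 (highest adjusted p = 0.133). The basophil protease genes did not pass the test: Mcpt8 stood at 297 to 379 CPM in Flt3 GMP against 405 to 532 CPM in WT GMP (-0.64 ± 0.27, adjusted p = 0.104). Prss34 had 405, 367 and 224 CPM in Flt3 GMP, against 198, 181 and 158.3 CPM in WT GMP, higher in each Flt3 library (0.69 ± 0.33, adjusted p = 0.156). Without the near-empty library Mcpt8 passed (adjusted p = 0.00189), and in a fit of the 6 libraries alone Prss34 did (adjusted p = 0.00696). Cyp11a1, which begins steroid synthesis, rose by 1.67 ± 0.46, lost without Flt3 replicate 3 or WT replicate 3 (highest adjusted p = 0.0746). Of 6 tested eosinophil genes 3 fell and the median was -1.39. Prg2, the major basic protein gene, had 819, 529.8 and 438 CPM in Flt3 GMP, against 2404, 1181 and 2419.8 CPM in WT GMP (-1.96 ± 0.41, adjusted p = 0.0038), Prg3 fell by 1.95 (adjusted p = 6.87e-07) and Epx, eosinophil peroxidase, by 2.18 on the log2 scale (adjusted p = 0.00269).

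Genes of resident macrophages, which a progenitor gate should not hold, were low in WT GMP and fell in part. Of 8 tested genes 4 fell, with a median of -2.26. C1qc, a complement component, had 0, 1.20 and 3.15 CPM in Flt3 GMP, against 21.7, 11.9 and 26.2 CPM in WT GMP (-3.71 ± 0.82, adjusted p = 0.00147). Vcam1, an adhesion molecule of marrow macrophages, had 13.98, 1.20 and 3.15 CPM in Flt3 GMP, against 32.5, 23.4 and 40.9 CPM in WT GMP (-2.78 ± 0.55, adjusted p = 0.000277). Slc40a1, the iron exporter ferroportin, had 0, 1.20 and 6.31 CPM in Flt3 GMP, against 16.8, 14.4 and 22.1 CPM in WT GMP (-2.80 ± 0.64, adjusted p = 0.0016). Fcna, the ficolin A gene, had 0, 0 and 1.05 CPM in Flt3 GMP, against 12.8, 8.96 and 16.8 CPM in WT GMP, a call lost when any single library other than WT replicate 2 was left out (highest adjusted p = 0.165). In the gate itself, Fcgr3, which encodes the CD16 part of the CD16/32 antigen used to sort GMP, fell to 175, 101 and 74.6 CPM in Flt3 GMP, against 414, 467 and 515 CPM in WT GMP (-2.24 ± 0.22, adjusted p = 3.61e-09). Fcgr2b, the CD32 gene, stood at 104 to 155 CPM in Flt3 GMP against 117 to 161.6 CPM in WT GMP (-0.42 ± 0.20, adjusted p = 0.154). Kit stood at 54.2 to 70.4 CPM in Flt3 GMP against 55.2 to 106 CPM in WT GMP (-0.58 ± 0.23, adjusted p = 0.0892, and 0.0313 without WT replicate 1), and Cd34 at 669 to 809 CPM in Flt3 GMP against 465 to 549 CPM in WT GMP (0.29 ± 0.21, adjusted p = 0.375). Ly6a, the Sca-1 gene that GMP should lack, had 8.74, 18.1 and 15.8 CPM in Flt3 GMP, against 1.97, 4.98 and 3.35 CPM in WT GMP (1.77 ± 0.60, adjusted p = 0.037), a call lost without the near-empty library (adjusted p = 0.0502) and without Flt3 replicate 2, Flt3 replicate 3, WT replicate 1 or WT replicate 3 (highest adjusted p = 0.138). Of 9 tested stem cell genes 3 rose, Ly6a, Mycn and Mllt3. The number was 1 without Flt3 replicate 2, Flt3 replicate 3, WT replicate 1 or WT replicate 3, and without the near-empty library. It was also 1 in a fit of the 6 libraries alone, which does not count members it did not test. Mllt3 lost its call without the near-empty library (adjusted p = 0.0528) and without any single library other than Flt3 replicate 1 (highest adjusted p = 0.371). Mycn, a MYC family gene of stem cells, had 20.97, 16.9 and 39.9 CPM in Flt3 GMP, against 5.91, 5.48 and 0.671 CPM in WT GMP (2.50 ± 0.57, adjusted p = 0.00155). Of 4 tested Hox genes and cofactors none passed edgeR's test, 0 had an unadjusted p under 0.05, and DESeq2 called 0, with Hoxa9 at 34.9 to 51.8 CPM in Flt3 GMP against 22.8 to 54.2 CPM in WT GMP.

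**Figure D3:**
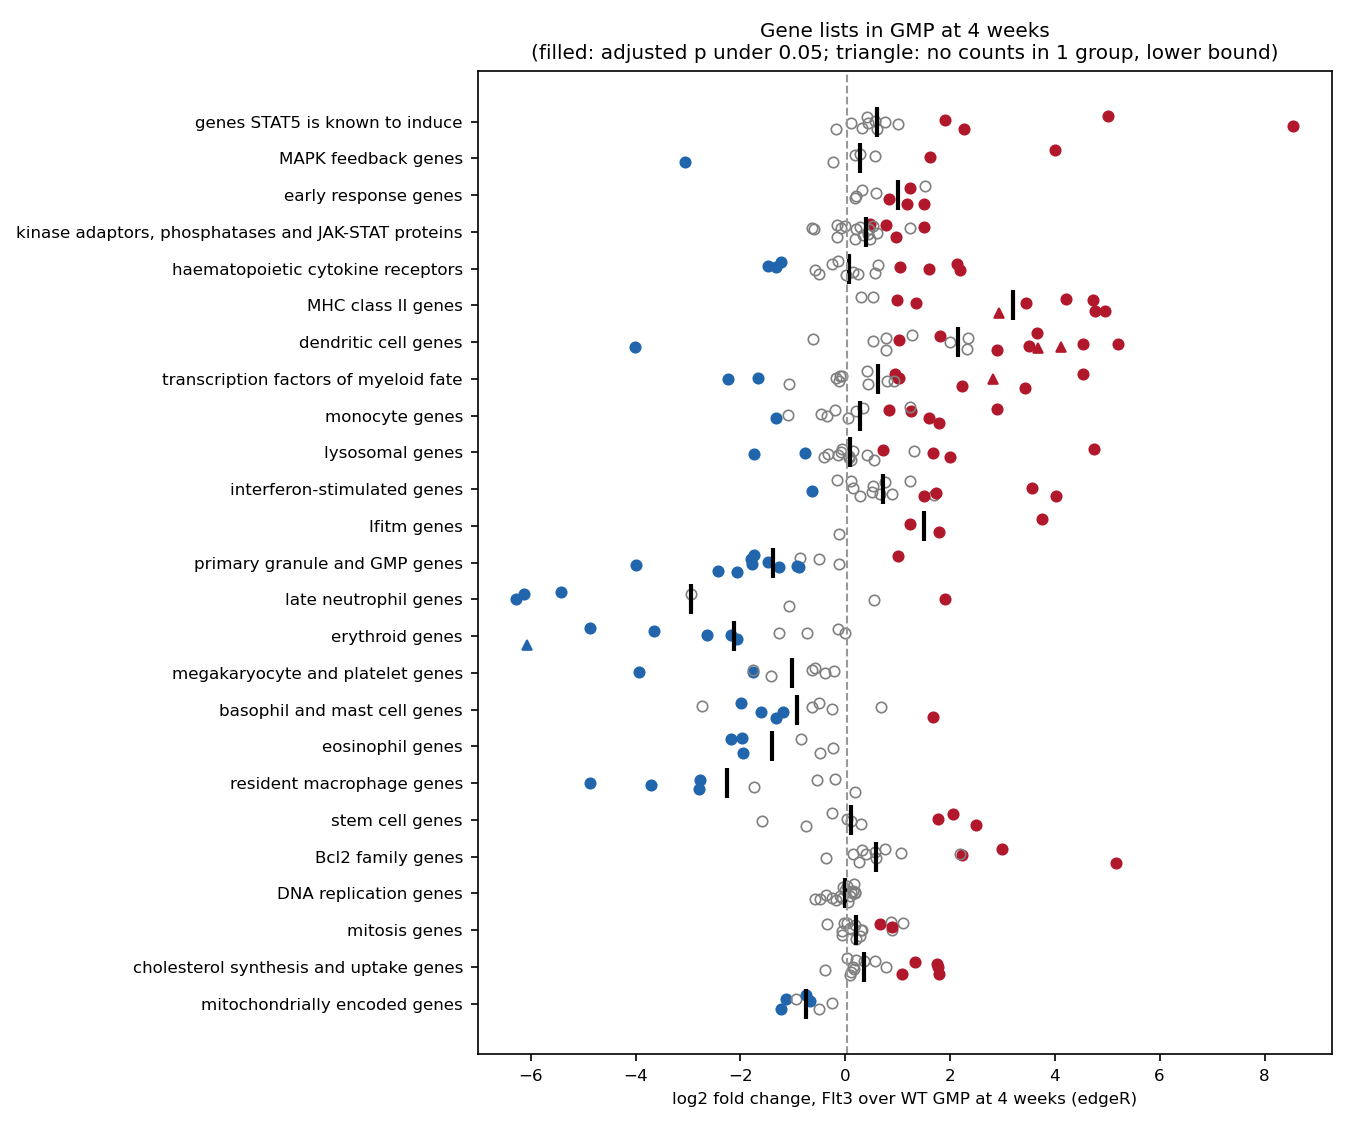
Each row is a gene list and each symbol a tested member at its log2 fold change of Flt3 over WT GMP at 4 weeks; filled symbols passed an adjusted p under 0.05 (red higher, blue lower), open symbols did not, triangles are genes with no counts in 1 group set at their lower bound, black bars are list medians and the dashed line is the median of all genes at 0.04; Atf3, with no counts in WT GMP and too few in Flt3 GMP for a bound, is left out. All 10 MHC class II members lie above 0 and all 8 megakaryocyte and all 6 eosinophil members below it, 16 of 18 dendritic members lie above 0 and 13 of 14 granule members below it, and the DNA replication genes lie on both sides.

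A few single survival and stress genes rose strongly. Of 13 tested Bcl2 family genes 3 rose, with a median of 0.58. Bcl2, the founding anti-apoptotic gene, had 99.6, 106 and 98.8 CPM in Flt3 GMP, against 18.7, 21.4 and 15.4 CPM in WT GMP (2.24 ± 0.25, adjusted p = 3.61e-09), with the Flt3 libraries close together and clear of WT. Bcl2a1a rose (5.17 ± 1.15, adjusted p = 0.00476), as did Bcl2a1d (2.99 ± 0.80, adjusted p = 0.007) with its call lost without Flt3 replicate 3 (adjusted p = 0.0537), but the Bcl2a1 genes are nearly identical copies whose reads the counting could divide. Mcl1 stood at 119 to 155 CPM in Flt3 GMP against 79.6 to 103 CPM in WT GMP (0.32 ± 0.22, adjusted p = 0.363), and the pro-apoptotic gene Bax at 55.7 to 89.1 CPM in Flt3 GMP against 35.3 to 49.3 CPM in WT GMP (0.56 ± 0.28, adjusted p = 0.172). Of 6 tested p53 targets 1 rose: Cdkn1a, the p21 cell cycle inhibitor, had 66.4, 72.2 and 57.8 CPM in Flt3 GMP, against 15.8, 14.9 and 17.4 CPM in WT GMP (1.82 ± 0.28, adjusted p = 3.01e-06), while Mdm2 stood at 34.9 to 45.4 CPM in Flt3 GMP against 26.6 to 40.3 CPM in WT GMP. Of 9 tested heat shock genes 1 rose (3 in a fit of the 6 libraries alone), against 7.18% of all tested genes. This was Hsph1, with 105, 93.9 and 82.0 CPM in Flt3 GMP, against 19.7, 37.3 and 21.5 CPM in WT GMP (1.59 ± 0.26, adjusted p = 1.44e-05). NF-kB feedback and inflammatory genes did not pass edgeR's test in 13 tested, where 6 had an unadjusted p under 0.05 and DESeq2 called 0, though without Flt3 replicate 1 there were 3 that rose.

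Interferon-related genes rose in part and the Ifitm genes strongly. Ifitm proteins restrict virus entry at membranes, and 3 of 4 tested rose, with a median of 1.51. Ifitm1 had 2276, 2473 and 2602 CPM in Flt3 GMP, against 202, 163.8 and 111 CPM in WT GMP (3.75 ± 0.40, adjusted p = 5.08e-06). Ifitm3 had 1085, 1066 and 1465 CPM in Flt3 GMP, against 555, 381 and 398 CPM in WT GMP (1.23 ± 0.23, adjusted p = 0.000143). Ifitm6 rose by 1.78 ± 0.43 from low levels. Ifitm2 stood at 199 to 304 CPM in Flt3 GMP against 216 to 269 CPM in WT GMP (not called). Of 16 tested interferon-stimulated genes 4 rose and 1 fell, with a median of 0.71. Stat2, a transcription factor of the interferon response, had 38.4, 36.1 and 30.5 CPM in Flt3 GMP, against 8.87, 5.48 and 13.4 CPM in WT GMP (1.73 ± 0.37, adjusted p = 0.000769). Ifi27l2a had 20.97, 12.04 and 111 CPM in Flt3 GMP, against 2.96, 4.48 and 0 CPM in WT GMP (4.01 ± 0.94, adjusted p = 0.0157), where Flt3 replicate 3 stood far above the other Flt3 libraries, and its call was lost without WT replicate 1 (adjusted p = 0.0537) and in a fit of the 6 libraries alone (adjusted p = 0.0957). Irf7, the amplifier of the interferon response, stood at 19.2 to 60.9 CPM in Flt3 GMP against 5.97 to 19.7 CPM in WT GMP (1.69 ± 0.87, adjusted p = 0.24, and 0.00615 in a fit of the 6 libraries alone), and Irf1 at 51.5 to 69.8 CPM in Flt3 GMP against 44.9 to 52.2 CPM in WT GMP. Ifi47, an interferon-gamma-induced GTPase gene, fell by 0.63 on the log2 scale (adjusted p = 0.0123), a call lost without Flt3 replicate 3 or WT replicate 2 (highest adjusted p = 0.12).

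S100 and homing genes changed in both directions. Of 13 tested S100, annexin and membrane genes 3 rose (5 in a fit of the 6 libraries alone) and 2 fell, with a median of 0.34. S100a4 had 40.2, 47.0 and 37.8 CPM in Flt3 GMP, against 4.93, 5.48 and 5.37 CPM in WT GMP (2.76 ± 0.35, adjusted p = 8.5e-08). S100a6 had 119, 137 and 144 CPM in Flt3 GMP, against 25.6, 21.4 and 13.4 CPM in WT GMP (2.55 ± 0.24, adjusted p = 4.7e-11), both calcium-binding proteins tied to cell movement. S100a11 had 636, 469.6 and 292 CPM in Flt3 GMP, against 831, 849 and 1105 CPM in WT GMP (-1.20 ± 0.22, adjusted p = 0.000142) and Anxa1, the anti-inflammatory annexin A1 gene, 327, 248 and 321 CPM in Flt3 GMP, against 479.9, 627 and 547 CPM in WT GMP (-1.09 ± 0.19, adjusted p = 3.33e-05). Among 13 tested homing genes 4 rose, with a median of 0.37, and 2 did so without Flt3 replicate 3 or WT replicate 2. Selplg, the P-selectin ligand, had 805, 767 and 930.0 CPM in Flt3 GMP, against 354, 338 and 405 CPM in WT GMP (0.98 ± 0.19, adjusted p = 0.000202). S1pr3, a sphingosine-1-phosphate receptor, had 38.4, 74.6 and 79.9 CPM in Flt3 GMP, against 13.8, 21.9 and 18.8 CPM in WT GMP (1.61 ± 0.31, adjusted p = 0.000163). Cxcr4, the marrow retention receptor, stood at 15.7 to 43.3 CPM in Flt3 GMP against 9.85 to 30.2 CPM in WT GMP (not called).

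Of 17 tested DNA replication genes none passed edgeR's test (1 at an unadjusted p under 0.05, and DESeq2 called 0), with a median of 0.01, and Mcm5, a helicase subunit, stood at 377 to 419 CPM in Flt3 GMP against 323 to 371 CPM in WT GMP. Of 17 mitosis genes 2 rose, against 7.18% of all tested genes, with a median of 0.20. They were Top2a, which untangles chromosomes, at 0.66 ± 0.22 and Hmmr, a spindle gene, at 0.89 ± 0.26. The number depended on the fit. It was 4 with median-ratio factors and in a fit of the 6 libraries alone, and 3 without WT replicate 1. It was 1 without the near-empty library or WT replicate 3, and 0 without Flt3 replicate 1, Flt3 replicate 3 or WT replicate 2. DESeq2 called 0 on all libraries and 1 without the near-empty library. Of the 17 genes, 10 were higher in each Flt3 library than in any WT library by CPM without TMM scaling. The same held for 26.0% of all tested genes. Of 13 ribosome biogenesis genes 1 rose, against 7.18% of all tested genes. This was Nop56 at 0.54 ± 0.18, a call lost without any single library other than Flt3 replicate 1 (highest adjusted p = 0.155). Of 15 tested cholesterol genes 5 rose, with a median of 0.35. The number was 2 without Flt3 replicate 2, 3 without WT replicate 1 and 2 by DESeq2. Without the near-empty library DESeq2 called 5. Mvd, an enzyme of the mevalonate pathway, had 17.5, 22.9 and 17.9 CPM in Flt3 GMP, against 2.96, 6.47 and 4.69 CPM in WT GMP (1.76 ± 0.48, adjusted p = 0.00894). Srebf2, the transcription factor of the pathway, rose by 1.33 ± 0.39, lost without Flt3 replicate 2 or WT replicate 1 (highest adjusted p = 0.0967). Of 15 glycolysis genes 2 fell, 4 without the near-empty library, 5 in a fit of the 6 libraries alone, and 1 when any single library other than WT replicate 1 was left out. Gpi1, the glucose-6-phosphate isomerase gene, had 342, 323 and 298 CPM in Flt3 GMP, against 575, 549.5 and 629.8 CPM in WT GMP (-1.07 ± 0.18, adjusted p = 2.97e-05). Pkm2, the older symbol of the pyruvate kinase gene Pkm, stood at -0.66 ± 0.20 (adjusted p = 0.02) and lost its call without any single library other than WT replicate 1 (highest adjusted p = 0.0915). Of 12 serine, glycine and folate genes 2 rose and 1 fell. Without Flt3 replicate 2, Flt3 replicate 3, WT replicate 2 or WT replicate 3 no rise was left by edgeR, and 1 was left without the near-empty library. In a fit of the 6 libraries alone, which does not count members it did not test, 1 rose.

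Several of the largest rises were of genes with no counts in WT GMP. Nov, a matricellular CCN family gene also called Ccn3, had 17.5, 26.5 and 64.1 CPM in Flt3 GMP and no counts in the 3 WT libraries, at least 59.4-fold higher (adjusted p = 1.27e-09). Cp, ceruloplasmin, a copper-carrying ferroxidase, had 38.4, 33.7 and 37.8 CPM in Flt3 GMP and none in WT GMP, at least 55.0-fold higher (adjusted p = 2.44e-11). The pair differed in spread, with a coefficient of variation over the 3 Flt3 libraries of 68.7% for Nov and 7.01% for Cp. Tox, a chromatin-binding factor gene known from T cells, had 20.97, 16.9 and 19.97 CPM in Flt3 GMP and none in WT GMP (at least 28.8-fold higher). Cd36, a scavenger receptor gene, had 15.7, 10.8 and 13.7 CPM in Flt3 GMP and none in WT GMP (at least 19.8-fold). Rasgrp4, a RAS-activating exchange factor gene of mast and myeloid cells, had 12.2, 8.43 and 11.6 CPM in Flt3 GMP and none in WT GMP (at least 16.00-fold). For these 3 genes the Flt3 libraries lay close together. Pid1 (at least 14.7-fold) and Fam149a (at least 15.3-fold) were likewise absent from WT GMP, and the call of Fam149a was lost without Flt3 replicate 3 (adjusted p = 0.0711). Ifi44, an interferon-induced gene, had 10.5, 6.02 and 27.3 CPM in Flt3 GMP and none in WT GMP, at least 23.6-fold higher (adjusted p = 6.38e-05). With predicted, clone-named and sex-linked genes passed over, 49 genes of the table had counts in each Flt3 library and none in WT GMP. The reverse, counts in each WT library and none in Flt3 GMP, held for 96 genes by the same rule, in libraries that were deeper.

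Among the largest falls outside the lineage lists, Gdf3, a ligand of the TGF-beta family, had 5.24, 2.41 and 2.10 CPM in Flt3 GMP, against 171, 133 and 105 CPM in WT GMP (-5.67 ± 0.47, adjusted p = 1.51e-11), with no overlap. Hsd11b1, which regenerates active glucocorticoid, had 5.24, 1.20 and 6.31 CPM in Flt3 GMP, against 57.2, 41.8 and 75.8 CPM in WT GMP (-3.96 ± 0.46, adjusted p = 9.26e-09). Chst13, a chondroitin sulfotransferase gene, had 19.2, 7.22 and 4.20 CPM in Flt3 GMP, against 79.8, 87.6 and 98.6 CPM in WT GMP (-3.46 ± 0.42, adjusted p = 2.25e-07). Grb10, an adaptor that binds receptor tyrosine kinases, was below the filter, with no counts in Flt3 GMP and 8.87, 8.46 and 11.4 CPM in WT GMP, at least 7.47-fold lower. Mtus2 was at 0 in Flt3 GMP and at 5.91, 11.9 and 0.671 CPM in WT GMP, at least 5.39-fold lower. The spread within Flt3 GMP was wide for Zbtb46 and S100a8, with coefficients of variation of 117% and 118%, and it was 5.58% for Socs2. Flt3 replicate 1, the shallowest library, held the highest S100a8, Ms4a3, Elane and Ly6c2 of the 3 Flt3 libraries and the lowest H2-Ab1, Irf8 and Id2, so for these genes it stood nearest to the WT values.

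Within the Flt3 mutant GMP series, the 4-week state was set between the 2-week libraries and those of 6 and 8 weeks. These contrasts share the 4-week Flt3 libraries with the comparison to WT. Against 2 weeks, 1507 of 9122 genes differed (16.5%), 497 higher at 4 weeks (5.45%) and 1010 lower (11.1%). The 2-week libraries stood apart: Prss34, a basophil protease gene, took the largest share of their counts, 3.18% to 4.44%. Prss34 had 41058, 44442 and 31823 CPM at 2 weeks and 405, 367 and 224 CPM at 4 weeks (-7.25 ± 0.40, adjusted p = 6.86e-20, 4 weeks over 2 weeks). Basophil and mast cell genes were lower at 4 weeks for 10 of 10 tested, eosinophil genes for 6 of 6 and MHC class II genes for 10 of 10. H2-Ab1, higher at 4 weeks than in WT GMP, had 11678, 16085 and 10816 CPM at 2 weeks (-3.33 ± 0.37, adjusted p = 3.11e-07). Flt3 had 106, 139 and 137 CPM at 2 weeks, and the difference did not pass the test (-0.25 ± 0.19, adjusted p = 0.429). Socs2 had 102, 81.7 and 121 CPM at 2 weeks and was higher at 4 weeks by 1.94 ± 0.18, adjusted p = 3.18e-12. Ms4a3 had 1422, 1059 and 1287 CPM at 2 weeks and was lower at 4 weeks (-1.55 ± 0.23, adjusted p = 1.1e-06). Car1 had 120.1, 139 and 94.1 CPM at 2 weeks, where the 4-week libraries had no counts.

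Against the 6- and 8-week libraries 12 genes differed (0.132%; 707 had an unadjusted p under 0.05), 10 higher at 4 weeks (0.11%) and 2 lower (0.0219%). The number moved with the fit: it was 32 with no filter on low counts, 35 in a fit of these groups alone and 5 by DESeq2. It was 17 by DESeq2 without the near-empty library, 6 without Flt3 4-week replicate 1 and 26 without Flt3 8-week replicate 1. Of the 10 genes higher at 4 weeks, 6 belong to basophils, mast cells or eosinophils (Prss34, Prg2, Prg3, Cpa3, Fcer1a and Gata2), and 2 to the early response list (Fos and Jun). The remaining ones were Cd63 and Rps4y2, and the 2 lower genes Atp2b4 and H2afy2; Prss34, Gata2, Rps4y2, Atp2b4 and H2afy2 are named because they complete the count, chosen after their values were seen. Prg2 had 819, 529.8 and 438 CPM at 4 weeks, 95.4, 226 and 169.3 CPM at 6 weeks and 176 and 56.1 CPM in the 2 usable 8-week libraries (4 weeks over 6 and 8 weeks 2.16 ± 0.37, adjusted p = 0.0222). Fos had 99.6, 118 and 186 CPM at 4 weeks, 54.5, 61.6 and 79.5 CPM at 6 weeks and 44.5 and 28.4 CPM at 8 weeks (1.51 ± 0.22, adjusted p = 5.64e-05). Flt3, Socs2, H2-Ab1 and Ms4a3 were not called, at -0.10 ± 0.17, -0.13 ± 0.15, 0.55 ± 0.30 and 0.40 ± 0.20 on the log2 scale.

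**Figure D4:**
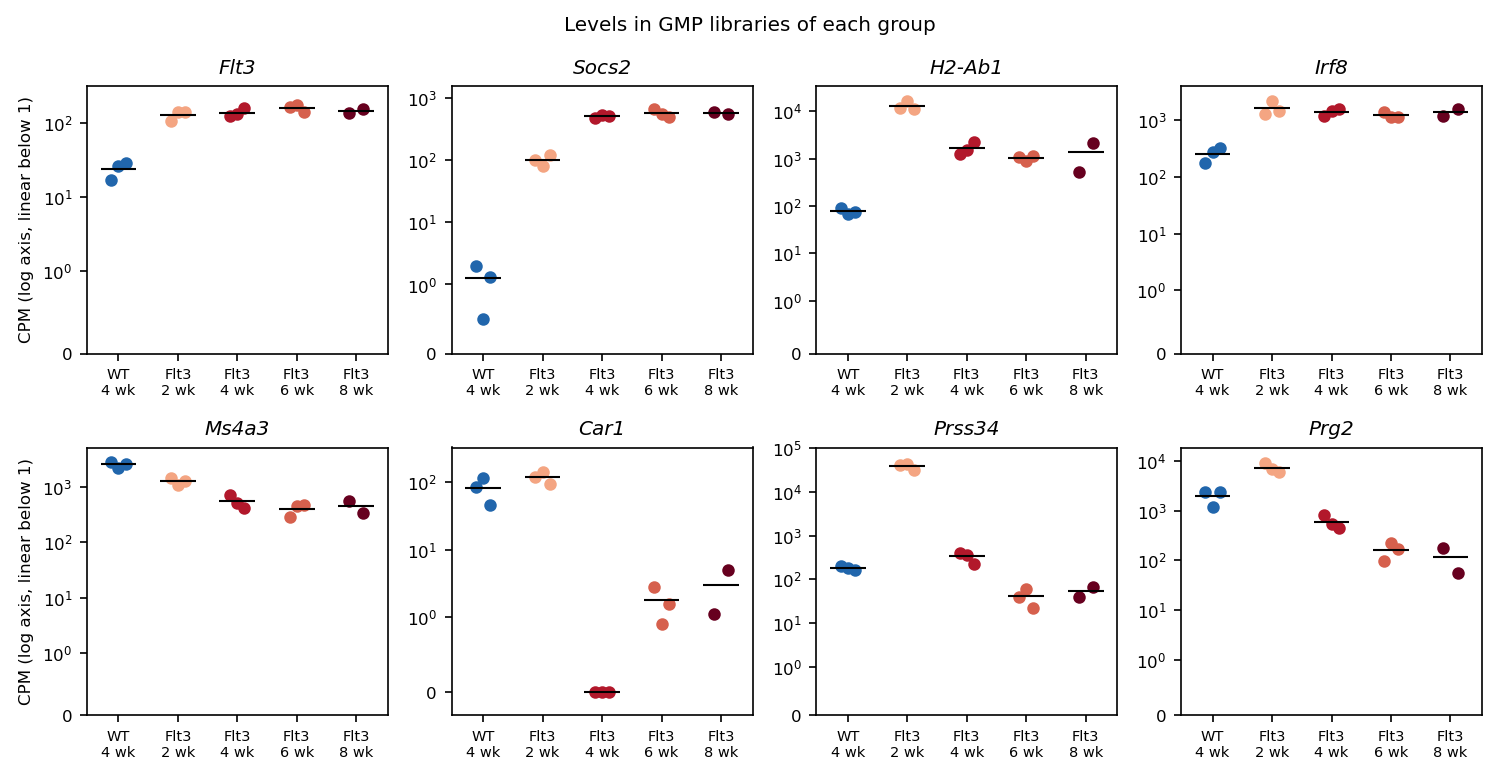
CPM of 8 genes in GMP libraries of WT mice at 4 weeks (blue) and of Flt3 mutant mice at 2, 4, 6 and 8 weeks (reds), on a log axis that is linear below 1 CPM, with one point per library and a bar at the group mean; the near-empty 8-week library is left out, which leaves 2 points at 8 weeks. Flt3 and Irf8 are above WT at all 4 Flt3 times, Socs2 is lowest at 2 weeks among them, H2-Ab1, Prss34 and Prg2 are highest at 2 weeks, and Car1 is at 0 in the 4-week Flt3 libraries.

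Whether the mutation shifted GMP differently from LSK, the earlier compartment with Sca-1 and Kit but no lineage markers, was asked as a difference of the 2 effects at 4 weeks in one fit of 30 libraries. The sample codes give each GMP library the same mouse number as an LSK library of its genotype. The effect differed for 424 of 10287 genes (4.12%), 212 with a higher value in GMP (2.06%) and 212 with a lower one (2.06%). The number was 204 without WT GMP replicate 1, 206 without Flt3 GMP replicate 3 and 261 without WT LSK replicate 3. It was 180 by DESeq2, 708 by DESeq2 without the near-empty library, 648 in a fit of these groups alone and 637 with the mouse number as a block. With median-ratio factors 341 were higher and 113 lower. Flt3 was one of them. In LSK it had 269, 244 and 254 CPM in Flt3 mice, against 159.7, 219 and 219.7 CPM in WT mice (0.39 ± 0.15, adjusted p = 0.102), and the GMP effect exceeded the LSK effect by 1.89 ± 0.25, adjusted p = 1.8e-06. Socs2 had 909.9, 1146 and 1056 CPM in Flt3 LSK, against 78.6, 56.9 and 33.8 CPM in WT LSK, a rise of 4.22 ± 0.20, and the GMP effect was larger by 4.33 ± 0.48, adjusted p = 1.56e-08. The granule gene Ctsg, lower in Flt3 GMP, had 488, 238 and 482 CPM in Flt3 LSK, against 255, 335 and 287 CPM in WT LSK (0.51 ± 0.29, adjusted p = 0.329), and its effect was lower in GMP by 2.57 ± 0.41 (adjusted p = 0.000661). For Irf8, which rose in LSK too (2.75 ± 0.35, adjusted p = 6.84e-06), the difference did not pass the test (-0.53 ± 0.47, adjusted p = 0.591), nor did it for H2-Ab1 (1.20 ± 0.79, adjusted p = 0.444). The block changed no call of these 5 genes or of Gata1. Gata1 fell in both, less in GMP (1.34, 0 and 0.660 CPM in Flt3 LSK, against 85.3, 72.9 and 70.7 CPM in WT LSK; difference 3.92 ± 0.80, adjusted p = 0.00199). Of the 145 named genes, 20 had a higher and 10 a lower effect in GMP. Apart from Flt3, these genes were named by the GMP comparison, which is a part of this difference. Their share is therefore not read against the 4.12% of all genes.

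**Figure D5:**
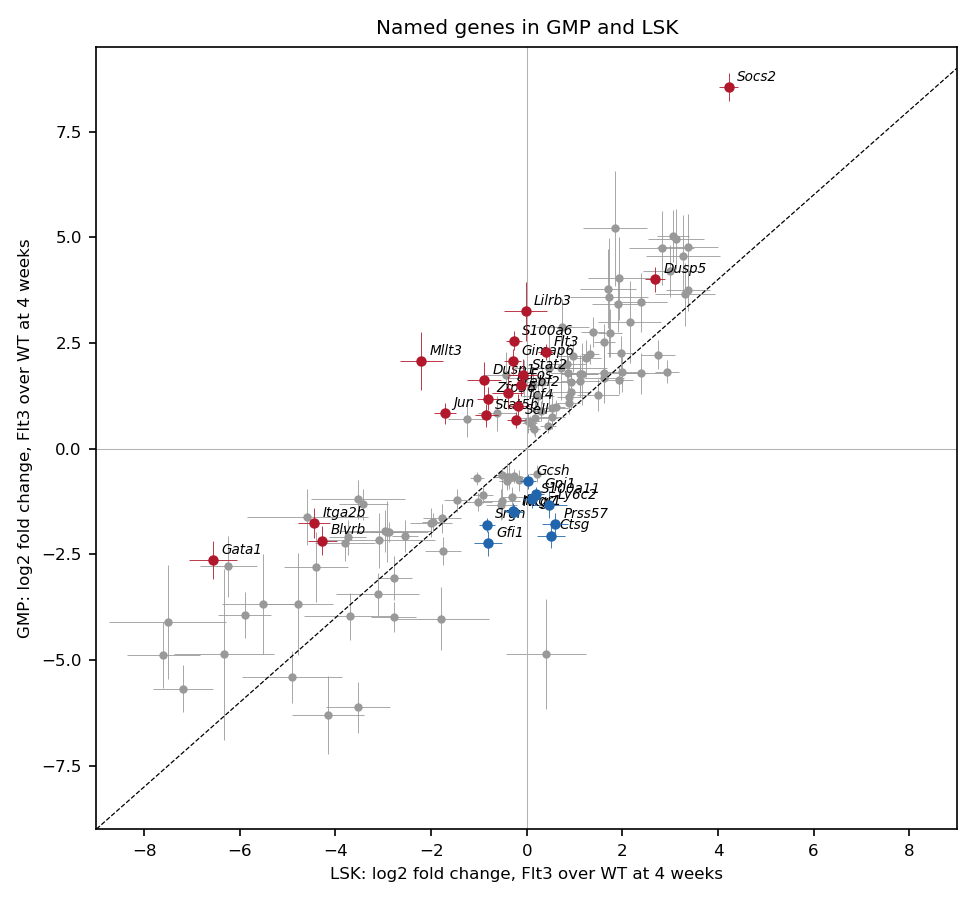
Log2 fold change of Flt3 over WT at 4 weeks in GMP (y axis) against that in LSK (x axis) for 133 named genes with counts in both GMP groups, with bars of 1 SE from the fit of 30 libraries and a dashed line of equal effects. Genes whose effects differ at an adjusted p under 0.05 are coloured and labelled, 19 with a higher value in GMP (red) and 10 with a lower one (blue); Socs2 lies highest above the line and Ctsg lies among the blue points.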

How the data were processed

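RNA was measured in 6 GMP libraries compared here (3 Flt3, 3 WT), with 24 further libraries of the same table in the fits. The authors deposited raw counts per gene symbol for 33924 genes, not normalised. STAR, featureCounts and mm10 are named per the submitters' processing notes. Versions, annotation and strand setting are not given in the sources used here. The members and gene lists were chosen with earlier results of these data known.

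From these counts, edgeR 4.0.16 in R 4.3.3 (limma 3.58.1) was run with filterByExpr, TMM scaling and the robust quasi-likelihood F test, adjusted by Benjamini-Hochberg over all genes at 0.05. The fit held 15 GMP libraries (WT and Flt3 at every time), and 30 libraries for the difference from LSK. The SE is the size of the log2 fold change divided by the square root of F. P-values rest on the spread between libraries within groups, estimated over all libraries of a fit, the near-empty one among them. The sample codes give the 3 libraries of each 4-week GMP group different numbers, read here as mouse numbers. The labels do not state that these are separate animals. Levels are counts scaled to library totals, without TMM. Where every library of a group lacked a gene, that group was given a floor of 3 counts over its summed total (1.27 CPM for Flt3, 0.664 CPM for WT). The resulting fold is a lower bound and reflects counting error alone. On simulated counts for 9122 genes with 200 changed, the Flt3 against WT comparison recovered 46% of 2-fold and 87% of 4-fold changes with 14 false calls. Changes were planted only in genes above a minimum average CPM, so recovery at the lowest levels was not tested. The counts were drawn from a profile shared by all libraries, without the differences in composition that the real libraries hold.

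Uncalled list members named as examples were chosen after their values were seen. Named genes were otherwise Flt3, the 10 largest rises and falls among called genes with an average log2 CPM of at least 4 and no overlap, up to 6 called members per list plus members that define a cell type or stand at 0, the 6 largest differences per direction in the other comparisons, up to 5 genes per group absent from the other, and members with the widest and narrowest spread. Of 597 listed genes 583 matched by symbol, 11 by synonym and 3 not. Values of 4 listed genes are not reported here, and these genes stay in the counts and medians of their lists. Alternatives were median-ratio factors, other filters, a replicate block, DESeq2 1.42.0, fits of fewer groups and leaving out single libraries. Promoter sequences came from RefSeq tables on GRCm38.p6. Tables and figures were made with Python 3.11.15, pandas 2.3.3 and matplotlib 3.10.9.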

Additional observations from a re-analysis of the deposited data

Results flagged for a closer look

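Each gene below changed between Flt3 and WT GMP at 4 weeks and also differed by a second test of edgeR, either between 4 and 2 weeks within Flt3 GMP or between the Flt3 effects in GMP and LSK. All these contrasts share the 3 Flt3 4-week GMP libraries. At 4 weeks over 2 weeks, the log2 fold change was 2.54 for Mycn, 2.54 for Ifi44, 1.94 for Socs2, 1.93 for Il6st, 1.90 for Csf1r and 1.81 for S1pr3. It was -10.72 for Car1, -6.54 for Fcer1a, -5.17 for Gzmb, -5.02 for S100a9, -4.72 for Klf1 and -4.39 for Ms4a2. The value for Car1 rests on 0 counts at 4 weeks, depends on the prior count and is no bound.

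The Flt3 effect in GMP minus that in LSK was 6.13 for Tox, 4.33 for Socs2, 4.28 for Mllt3, 3.92 for Gata1, 3.28 for Lilrb3 and 2.82 for S100a6 on the log2 scale. It was -2.57 for Ctsg, -2.38 for Prss57, -1.80 for Ly6c2, -1.43 for Gfi1, -1.32 for S100a11 and -1.27 for Gpi1. The value for Tox rests on 0 counts in WT GMP and is no bound. The call of Mllt3 against WT did not hold in several fits, by DESeq2 among them (adjusted p = 0.211).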

How the results depend on the processing

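The 1364 calls of Flt3 against WT lay between 1335 and 1467 under the other scalings, filters and fits of fewer groups, were 366 by DESeq2 (245 higher, 121 lower) and 1384 by DESeq2 without the near-empty library, and ranged from 770 to 1163 with single libraries left out (higher 425 to 570, lower 345 to 593). The 1507 calls against 2 weeks were 567 by DESeq2, 1482 by DESeq2 without the near-empty library and 1177 to 1295 with single libraries left out. The 12 calls against 6 and 8 weeks were 32 with no filter, 5 by DESeq2 and 17 by DESeq2 without the near-empty library. They were 35 in a fit of the groups compared, and 6 to 26 with single libraries left out. The 424 calls of the difference from LSK were 180 by DESeq2, 708 by DESeq2 without the near-empty library, 648 in a fit of the groups compared, 637 with the animal as a block, and 204 to 388 with single libraries left out. The cause was not tested. Of 2802 alternatives over 177 genes given with a test, 2530 kept direction and call, 240 lost the call, 32 gained one and 0 reversed. Genes given by their levels alone were not counted.

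Deviations from the group mean correlated at 0.0221, -0.0115 and -0.0235 between same-numbered Flt3 and WT libraries. This cannot decide whether replicate numbers pair libraries. GMP and LSK libraries with the same mouse number correlated as weakly, at 0.00189 to 0.0994. With the replicate block 1202 genes were called (597 higher, 605 lower) against WT, 1412 against 2 weeks, 11 against 6 and 8 weeks and 403 for the difference from LSK.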

Other observations

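Lists not described above held a few further changes in Flt3 GMP relative to WT GMP (edgeR, adjusted p under 0.05). Of all tested genes 7.18% rose and 7.77% fell. Of 7 tested mitochondrially encoded genes 4 fell, with a median log2 fold change of -0.74. The number was 2 with median-ratio factors and without Flt3 replicate 3 or WT replicate 1, and 6 in a fit of the 6 libraries alone. DESeq2 called 1 on all libraries and 5 without the near-empty library. mt-Co1, a cytochrome oxidase subunit, stood at -1.23 ± 0.26 and mt-Nd1, a complex I subunit, at -1.13 ± 0.22. Mitochondrial genes held 0.279% to 0.32% of the counts in Flt3 libraries and 0.45% to 0.459% in WT libraries. Of 4 tested T and NK cell genes 2 rose, the kinase gene Lck (2.79 ± 0.67) and Gimap6 (2.05 ± 0.35), and 2 fell, the granule genes Nkg7 (-1.50 ± 0.21) and Gzmb (-4.84 ± 0.93), while Cd3e had no counts in either group.

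Among 14 tested immune surface genes Havcr2, which encodes TIM-3, rose by 3.77 ± 0.84 and Lilrb3 by 3.25 ± 0.60, the second a call lost without Flt3 replicate 3 (adjusted p = 0.0726), and Lgals9, the galectin-9 gene, fell; 4 of this list rose without the near-empty library. Of 6 leukotriene and prostaglandin genes 1 fell (2 without the near-empty library), Ptgs1, which encodes COX-1 (-2.10 ± 0.44). Of 5 lymphoid genes 1 rose, Ighm, a call lost without WT replicate 1 (adjusted p = 0.081). Of 6 stress response genes Atf4 fell, a call lost with median-ratio factors (adjusted p = 0.0816), by DESeq2 (adjusted p = 0.386) and without any single library other than WT replicate 2 (highest adjusted p = 0.143). Of 8 DNA methylation genes Idh1 fell, a call lost with median-ratio factors (adjusted p = 0.0583), by DESeq2 (adjusted p = 0.367) and without Flt3 replicate 3, WT replicate 1 or WT replicate 3 (highest adjusted p = 0.17). In the list of gate genes 1 of 10 rose (Ly6a) and 2 fell (Fcgr3 and Elane). Of 4 plasma cell genes none passed edgeR's test, 1 had an unadjusted p under 0.05 and DESeq2 called 0. The share of tested genes that changed ran from 10.1% on chromosome 12 to 18.4% on chromosome 17, where 8 of the 10 tested class II genes lie.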
